A study of Mus musculus with 2 samples.

Results

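Tight junction genes were examined in prostaspheres, the spheres that prostate epithelial cells form in Matrigel, with and without the transcription factor Sox9. The set held 7 claudin genes (Cldn1, Cldn3, Cldn4, Cldn7, Cldn8, Cldn10 and Cldn23), occludin (Ocln) and the scaffold gene Tjp1. These 9 genes were taken by name, whatever their values, from 27827 gene names on Agilent whole mouse arrays, and 12 probes measured them. Cldn3, Cldn4 and Cldn7 were lower in RNA from Sox9-expressing than from Sox9-deleted prostaspheres on both of the 2 arrays, with mean log2 ratios of -1.27, -0.94 and -0.82. Cldn23, Ocln and Cldn1 were lower by smaller amounts, Cldn8 was higher, and Tjp1 lay near 0. None of the 8 that were bright enough to be tested passed an adjusted p of 0.05 with limma, which 0.0132% of all genes did.

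Each array carried RNA from a pair of cultures. In the genotype comparison, wild-type prostaspheres given tamoxifen (TAM) were labeled with Cy5, and ER-Sox9flox/flox prostaspheres given TAM were labeled with Cy3. In the treatment comparison, ER-Sox9flox/flox prostaspheres given vehicle carried Cy5, and ER-Sox9flox/flox prostaspheres given TAM carried Cy3. ER-Sox9flox/flox cells have loxP-flanked Sox9 alleles and a Cre recombinase fused to the estrogen receptor, driven from the ubiquitous Rosa26 locus, which TAM activates. The vehicle control carries the same alleles as the deleted cells, whereas the labels of the wild-type cells name no floxed allele and do not mention Cre. According to the labels all animals had the C57/Bl6J background, the epithelium came from the urogenital sinus at 16 days post conception, and the spheres grew for 6 days in Matrigel with dihydrotestosterone and then for 6 days with 5 µM TAM or vehicle. The methods describe the prostasphere assay for adult prostate, so the age of the source is not settled. The labels do not say whether animals were pooled. The genotype label reads Sox9 null for both RNAs of the treatment comparison, and there the treatment separates them. Sox9-expressing RNA had Cy5 on both arrays, with no dye swap, so a dye bias of a probe and its response to Sox9 cannot be told apart. Every log2 ratio below sets the Sox9-expressing RNA over the Sox9-deleted one, and the 2 arrays serve as replicates, although their contrasts differ. In the treatment comparison loss of Sox9 cannot be told apart from TAM itself, which the vehicle control lacked. In the genotype comparison it cannot be told apart from other differences between the genotypes.

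Tight junctions seal the space between epithelial cells near the apical surface. Claudins are membrane-spanning proteins whose extracellular loops meet those of the neighbouring cell, and the mix of claudins sets which ions pass between the cells. Occludin is a membrane protein of another family, and Tjp1 encodes the zonula occludens scaffold that ties claudins and occludin to actin. In the prostate, tight junctions are a feature of the luminal cell layer, and basal cells lie beneath it.

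Sox9 itself was read by 3 probes. The probe at transcript base 2082 had log2 ratios of 2.69 and 2.37 in the genotype and treatment comparisons, and the one at base 786 had 1.17 and 1.27. The third, at base 3883, went the other way with -0.997 and -1.22. Which part of Sox9 the floxed allele removes is not given in the sources used here, so it is not known which of these probes checks the deletion. The direction of each ratio rests on the titles, treatments and dyes in the labels. The source names instead call each Cy5 RNA SOX9 and its Cy3 partner Ctrl, and taken to mean the deleted gene they would reverse all signs.

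RefSeq promoter windows on the GRCm38.p6 build, from 250 bases before to 50 bases after each transcription start, were at hand for 7 of the 9 genes, in 10 windows. Cldn8 and Cldn23 were not matched. The windows were searched on both strands for CAGGTG, whose reverse complement is CACCTG, the E-box that the Snail and Zeb repressors of epithelial junction genes bind. It was present in 5 windows of 4 genes (Cldn3, Cldn4, Cldn7 and Ocln), and in 20.2% of all 32851 mouse windows. These 4 windows are shown because their genes are among those with lower levels in Sox9-expressing RNA, with the E-box in capitals and the gene strand written 5′ to 3′.
Cldn3, chr5:134985964-134986263, + strand: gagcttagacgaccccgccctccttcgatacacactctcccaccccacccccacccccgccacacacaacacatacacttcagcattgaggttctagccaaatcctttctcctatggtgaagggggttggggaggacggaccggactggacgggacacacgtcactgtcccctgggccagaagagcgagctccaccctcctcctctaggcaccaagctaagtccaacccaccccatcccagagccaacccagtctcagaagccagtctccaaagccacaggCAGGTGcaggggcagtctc
Cldn4, chr5:134946885-134947184, - strand: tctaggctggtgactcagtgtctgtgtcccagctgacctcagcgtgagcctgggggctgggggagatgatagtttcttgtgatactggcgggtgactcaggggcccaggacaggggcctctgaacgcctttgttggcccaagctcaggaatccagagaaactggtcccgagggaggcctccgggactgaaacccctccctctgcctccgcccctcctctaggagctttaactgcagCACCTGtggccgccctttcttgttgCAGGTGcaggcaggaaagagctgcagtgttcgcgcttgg
Cldn7, second start, chr11:69965171-69965470, + strand: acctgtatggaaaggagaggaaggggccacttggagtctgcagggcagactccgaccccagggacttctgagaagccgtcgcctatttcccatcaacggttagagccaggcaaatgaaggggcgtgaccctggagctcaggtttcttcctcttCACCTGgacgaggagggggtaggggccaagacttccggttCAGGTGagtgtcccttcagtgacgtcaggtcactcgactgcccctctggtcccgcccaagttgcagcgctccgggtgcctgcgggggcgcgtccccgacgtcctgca
Ocln, second start, chr13:100552449-100552748, - strand: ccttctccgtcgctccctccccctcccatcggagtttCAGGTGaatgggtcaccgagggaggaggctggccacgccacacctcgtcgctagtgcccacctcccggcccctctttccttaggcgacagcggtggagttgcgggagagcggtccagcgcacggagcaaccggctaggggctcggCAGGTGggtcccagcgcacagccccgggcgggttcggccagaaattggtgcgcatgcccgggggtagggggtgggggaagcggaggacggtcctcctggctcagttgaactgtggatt
The first base of the E-box lay at position 31 from the start site in Cldn3, at -14 and 11 in Cldn4, at -97 and -57 in Cldn7 and at -213 and -68 in Ocln. The Ocln site at -213 is also position 7 of that gene's overlapping first window, so it was counted in both windows. The windows of Cldn1, Cldn10 and Tjp1 and the first window of Cldn7 held no match. Of 2 Sox-type motifs, AACAAT was in 0 of the 10 windows, against 10.7% of all windows, and AACAAAG was in 1, that of Cldn4, against 5.85%. A match of letters in a window is a description only, and binding was not measured here.

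Cldn3 encodes a barrier-forming claudin of simple epithelia and, with Cldn4, a receptor of the Clostridium perfringens enterotoxin. In the genotype comparison its normalized brightness was 6846 in wild-type RNA and 16460 in Sox9-deleted RNA, and in the treatment comparison it was 6007 with vehicle and 14495 in Sox9-deleted RNA. The Sox9-deleted RNA was the brighter one on each array, as it was for 33.7% of all tested genes. Brightness was not scaled between the arrays, so it is best compared within each. The log2 ratios were -1.27 and -1.27, with a mean of -1.27 ± 0.0037 (SD, n = 2) and a 95% confidence interval of -1.47 to -1.06. Levels were thus 2.41-fold higher without Sox9. The test with limma gave an adjusted p of 0.0795, above the threshold of 0.05. This SD was below the median SD between replicate spots of a probe on an array (0.0362 and 0.0429).

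Cldn4 encodes a barrier-forming claudin of similar distribution. Its brightness was 2280 in wild-type and 4078 in Sox9-deleted RNA in the genotype comparison. In the treatment comparison it was 1811 with vehicle and 3725 in Sox9-deleted RNA. On each array the Sox9-deleted RNA was the brighter one. The log2 ratios were -0.84 and -1.04, a mean of -0.94 ± 0.14 (SD, n = 2) or 1.92-fold more without Sox9, with a limma adjusted p of 0.0968.

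Cldn7 encodes a claudin that lies partly along the lateral membrane, where it binds Epcam. Its brightness was 9630 in wild-type and 15841 in Sox9-deleted RNA, and 8507 with vehicle against 16219 in Sox9-deleted RNA. As for Cldn3 and Cldn4, the Sox9-deleted RNA was the brighter one on each array. The log2 ratios of -0.72 and -0.93 gave a mean of -0.82 ± 0.15 (SD, n = 2), with a limma adjusted p of 0.110. Epcam, its partner, lay in the other direction, with log2 ratios of 0.46 and 0.37 and a limma adjusted p of 0.160.

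Cldn23 is a less studied claudin. Its brightness was 1024 in wild-type and 1513 in Sox9-deleted RNA, and 1076 with vehicle against 1497 in Sox9-deleted RNA. Here too the Sox9-deleted RNA was the brighter one on each array. The mean log2 ratio was -0.52 ± 0.061 (SD, n = 2), from -0.56 and -0.48, with a limma adjusted p of 0.134.

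Cldn1 encodes the claudin required for the water barrier of the epidermis. Its brighter probe, at transcript base 903, read 328 in wild-type and 400 in Sox9-deleted RNA of the genotype comparison, and 226 with vehicle against 326 in Sox9-deleted RNA. The Sox9-deleted RNA was brighter on each array, but wild-type RNA was about as bright as Sox9-deleted RNA of the other array. The arrays were not scaled to each other, so this comparison across them has no clear reading. The log2 ratios were -0.29 and -0.53 (mean -0.41, limma adjusted p of 0.193). The probe at base 2541 gave -0.17 and -0.47 (mean -0.32, limma adjusted p of 0.269).

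Cldn8, a claudin best known from the distal nephron, was the 1 tested gene of the set with more signal in both Sox9-expressing RNAs than in their partners. Its brightness was 245 in wild-type and 186 in Sox9-deleted RNA, and 169 with vehicle against 125 in Sox9-deleted RNA. The order held within each array, while across arrays the ranges overlapped. Brightness was not scaled between arrays, and dim probes read higher on the array of the genotype comparison. Cldn11, not well above background in any RNA, read 136 and 135 there, against 66.3 and 64.1 in the treatment comparison. The overlap therefore says little about Cldn8. The mean log2 ratio was 0.42 ± 0.027 (SD, n = 2), with a limma adjusted p of 0.155. Because an offset of 50 was added to each signal, the ratios of dim probes such as those of Cldn8 and Cldn1 are understated.

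Cldn10, which encodes channel-forming claudins, was dim. Its brightness was 140.5 in wild-type and 140.0 in Sox9-deleted RNA, and 78.3 with vehicle against 65.0 in Sox9-deleted RNA. It was well above background in 1 of the 4 RNAs, that of the vehicle-treated cells, and was not tested. No difference between the RNAs can be read from it at this signal.

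**Figure D1:**
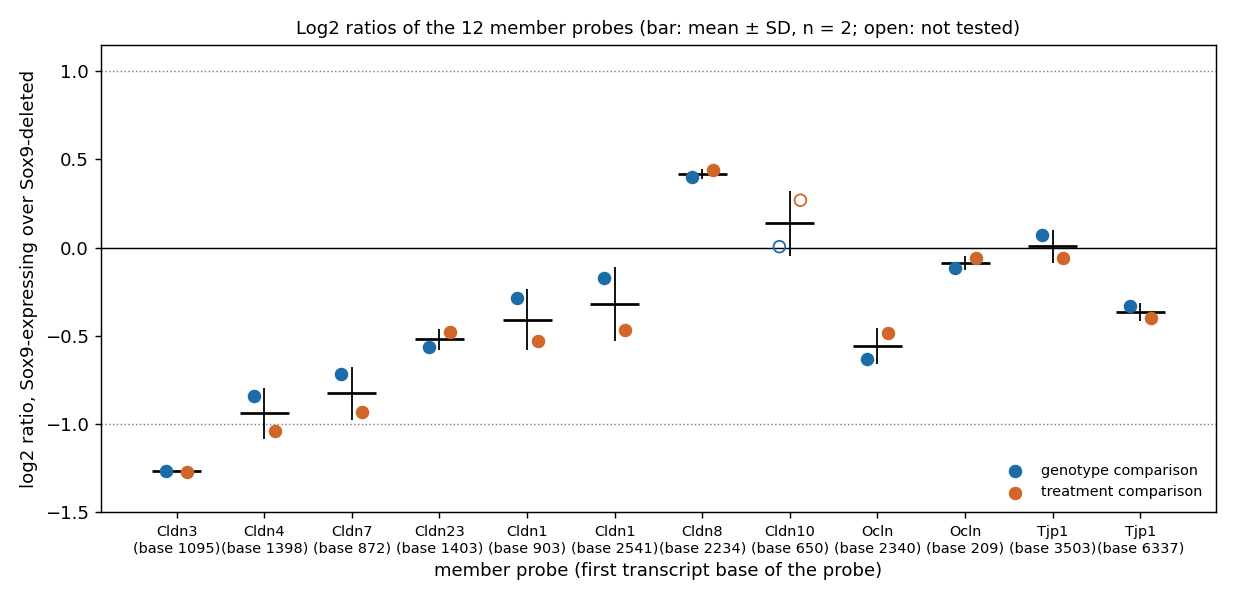
Log2 ratio of Sox9-expressing over Sox9-deleted RNA (vertical axis) for each of the 12 probes, named by gene and first transcript base, with 1 point per array and bars for the mean and SD (n = 2). Cldn3, Cldn4 and Cldn7 lie lowest, Cldn8 lies above 0 on both arrays, and the open points of Cldn10 were not tested.

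Occludin was measured by 2 probes that gave different values. The brighter one, at transcript base 2340, read 325 in wild-type and 503 in Sox9-deleted RNA, and 306 with vehicle against 428 in Sox9-deleted RNA. Its log2 ratios were -0.63 and -0.48, with a mean of -0.56 ± 0.10 (SD, n = 2) and a limma adjusted p of 0.135. The probe at base 209 read 152 and 165 in the genotype comparison and 98.2 and 102 in the treatment comparison. There the log2 ratios were -0.11 and -0.06, with a limma adjusted p of 0.577. The direction was shared by both probes and the size was not, but the probe at base 209 was dim. The offset added to each signal understates the ratios of dim probes. With the scanner's processed signals the probe at base 209 had -0.97 and -0.31, and the one at base 2340 had -0.90 and -0.66. With the authors' processed values their means were -0.26 and -0.71. The difference in size thus depended on the processing, and its cause was not tested.

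Tjp1 was likewise read by 2 probes. The brighter, at base 3503, read 686 in wild-type and 652 in Sox9-deleted RNA, and 599 with vehicle against 623 in Sox9-deleted RNA. Its log2 ratios of 0.07 and -0.06 had opposite signs, and their mean was 0.01, with a 95% confidence interval of -0.22 to 0.24 and a limma adjusted p of 0.965. The dimmer probe, at base 6337, read 401 in wild-type and 504 in Sox9-deleted RNA, and 322 with vehicle against 425 in Sox9-deleted RNA. Both of its ratios were below 0 (-0.33 and -0.40, limma adjusted p of 0.177). Whether the probes of Ocln or of Tjp1 read different transcripts was not tested.

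**Figure D2:**
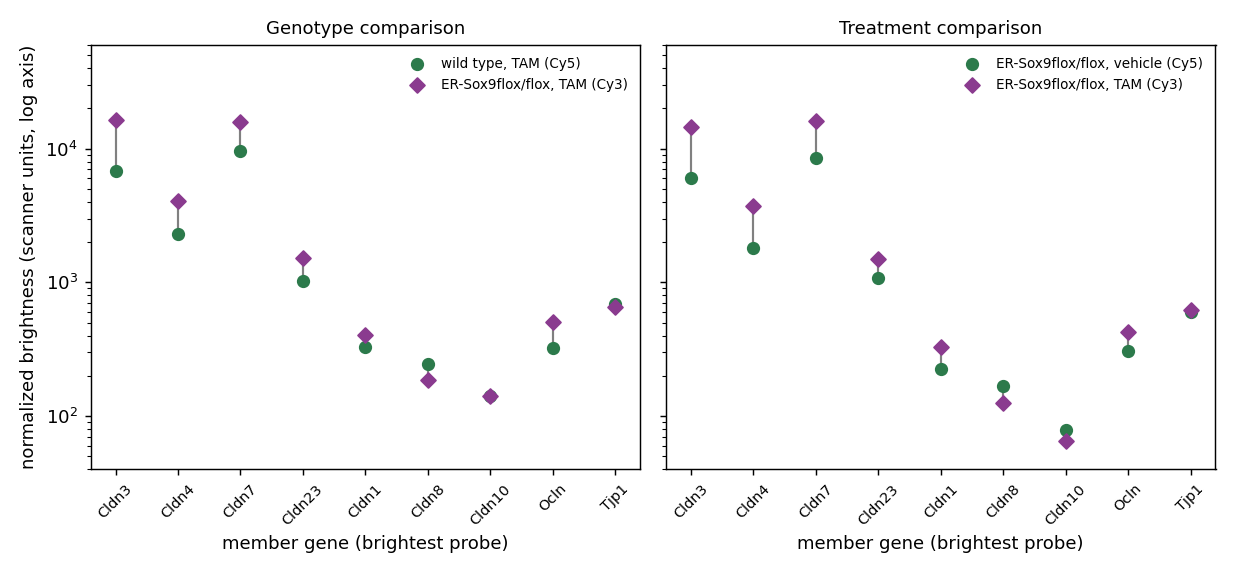
Normalized brightness in scanner units (vertical log axis) of the brightest probe of each gene in the 4 RNAs, with 1 panel per array, circles for Sox9-expressing and diamonds for Sox9-deleted RNA. Each pair is read within a gene, because probes differ in how strongly they bind: Cldn3 went from 6846 to 16460 and from 6007 to 14495. A few dim genes lie close to background, among them Cldn10.

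The probes lie in mature transcripts at these places of the mm9 build, which the file headers name. Cldn3 was read at chr5:135463179-135463238 (+) and Cldn4 at chr5:135421347-135421406 (-). Cldn7 was read within chr11:69780780-69781089 (+), Cldn23 at chr8:36888151-36888210 (-) and Cldn8 at chr16:88561135-88561194 (-). The brighter Cldn1 probe lies at chr16:26359010-26359069 (-), and that of Ocln at chr13:101268114-101268173 (-). The brighter Tjp1 probe lies at chr7:72458154-72458213 (-) and the other at chr7:72441703-72441762 (-).

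Counted over the set, 8 of the 9 genes were bright enough to be tested, each through its brightest probe. With limma, 0 of 8 had an adjusted p under 0.05, against 0.0132% of the 15122 genes tested. At an unadjusted p under 0.05 limma gave 7 of 8, against 19.5% of all genes. Of these 7, 6 were lower in Sox9-expressing RNA (9.07% of all genes) and 1 was higher (10.4%). The methods' t-test gave 2 of 8 at an unadjusted p under 0.05 (8.84% of all genes) and 0 after adjustment.

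By direction, 6 of the 8 tested genes were lower on both arrays, against 33.7% of all genes, and 1 was higher on both, against 33.8%. With the arrays centred on their medians in place of the loess curve these counts were 5 and 2: Cldn23 was then at 0.08 in the treatment comparison, in which the median of all tested probes also stood at 0.38. Relative to that median Cldn23 was at -0.30, and Cldn1, Cldn3, Cldn4, Cldn7 and Ocln were below it too. Cldn3 alone was at least 2-fold lower on each array, as were 0.159% of all genes (24), and 0 of the 8 were 2-fold higher (0.377%). With median centring, or with the arrays scaled to 1 spread, 0 of the 8 were 2-fold lower on each array, Cldn3 being at -0.55 and -0.93 in the treatment comparison. The median log2 ratio of the 8 was -0.54, with -0.60 in the genotype and -0.51 in the treatment comparison. Over all tested genes the medians were 0.003, -0.01 and 0.01. Counted from the lowest mean log2 ratio, Cldn3 stood at place 20, Cldn4 at 69, Cldn7 at 102, Ocln at 328, Cldn23 at 384 and Cldn1 at 604 of 15122.

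**Figure D3:**
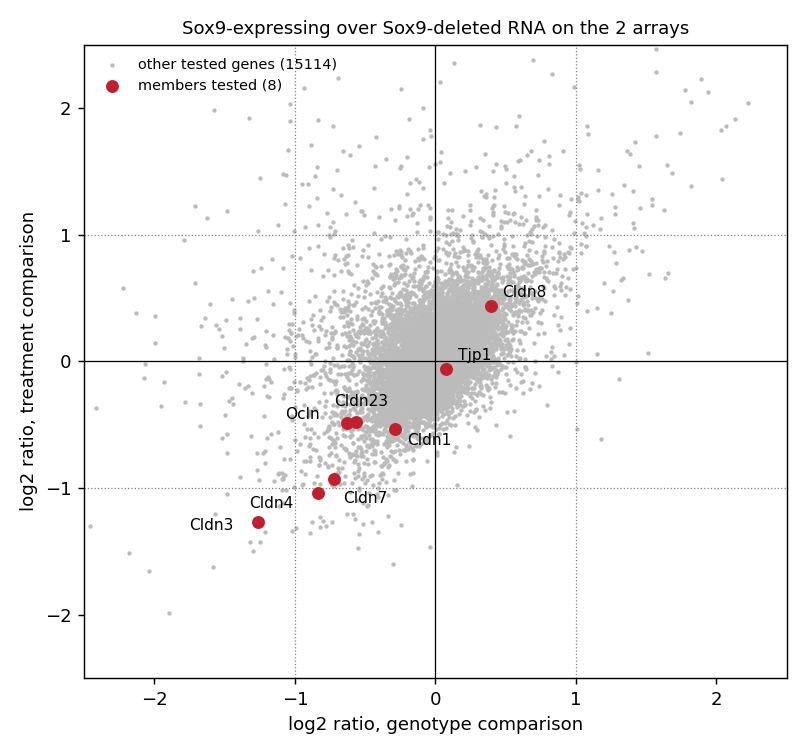
Log2 ratio in the genotype comparison (horizontal axis) against the treatment comparison (vertical axis) for the 8 tested genes of the set (red) and 15114 other tested genes (grey), with dotted lines at 2-fold. Of the tested genes, 25 lie outside the plotted range of 2.5. The 6 red points at lower left are Cldn3, Cldn4, Cldn7, Ocln, Cldn23 and Cldn1, of which Cldn23 moved to 0.08 on the vertical axis with median centring.

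Cldn3 and Cldn4 are neighbours, and their probes lie 41.773 kb apart on chromosome 5. Within 100 kb of either, 10 other genes had probes and 6 of them were bright enough to test. Abhd11, a mitochondrial hydrolase gene, had log2 ratios of -0.26 and -0.34. Vps37d had -0.19 and -0.16, and Dnajc30 had -0.11 and -0.05. Stx1a, a syntaxin gene of vesicle fusion, had -0.03 and -0.28, Wbscr22 had 0.07 and 0.01, and Wbscr27 had -0.002 and 0.12. No neighbour came near the sizes of Cldn3 and Cldn4, and limma adjusted p was 0.207 for Abhd11 and 0.335 or above for the rest. Cldn13, Wbscr25, Wbscr28 and 9030607J07Rik were not well above background in any RNA.

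**Figure D4:**
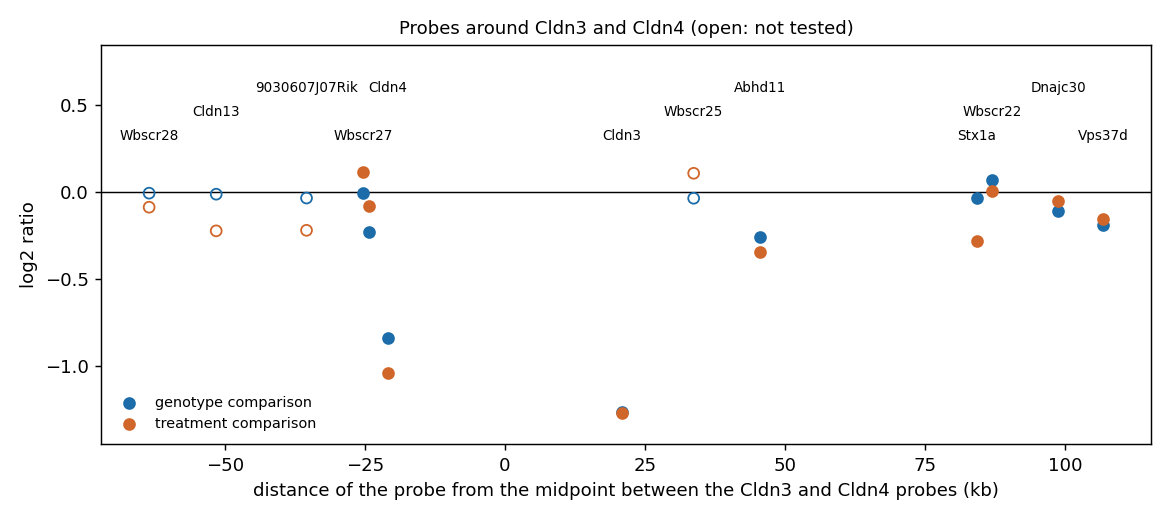
Log2 ratio (vertical axis) of each probe within 100 kb of Cldn3 or Cldn4, against its distance in kb from the midpoint of their probes, with 1 point per array and open points for probes that were not tested. Cldn4 (-0.84 and -1.04) and Cldn3 (-1.27 and -1.27) lie below the other probes of the region.

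The tested genes with log2 ratios closest to those of Cldn3, by Euclidean distance over the 2 arrays, were Cyp3a13 (a cytochrome P450 gene, distance 0.0192), 100040381 (0.0877), S57425 (0.154), AY423051 (0.163) and Slc9a2 (a sodium/proton exchanger gene, 0.200). With 2 arrays this is a nearness of values only.

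Other tight junction genes were set beside these. Of 14 further claudins on the array, 7 were not well above background in any RNA and 5 were tested. Cldn5, the claudin of endothelial tight junctions, had log2 ratios of -0.42 and -0.44, and its brightness of 151 and 202.1 in the genotype comparison and 97.4 and 133 in the treatment comparison was low. Cldn6, a claudin of embryonic epithelium, had 1.18 and -0.61, with a brightness of 918 in wild-type RNA, 237 with vehicle and 406 and 362 in the Sox9-deleted RNAs. Wild-type RNA thus stood alone for Cldn6, although brightness was not scaled between the arrays. Cldn12 had -0.27 and -0.39, whereas Cldn9 had 0.09 and 0.13 and Cldn14 had 0.05 and 0.10. Of the 5, 2 were lower and 2 higher on both arrays, the median being 0.07.

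All 12 further membrane proteins of the junction were tested, and both ratios were below 0 for 7 and above 0 for 2, the median being -0.18. Marveld2, which encodes tricellulin, found where the corners of cells meet, was at -0.36 and -0.33 (limma adjusted p of 0.181). Ildr1, another protein of those corners, was at 0.27 and 0.41 (limma adjusted p of 0.195). Among 28 plaque and polarity proteins 14 had both ratios below 0 and 6 had both above, the median being -0.10. Their extremes were paralogs of the Par polarity complex. Pard6b was at -0.51 and -0.81, with a brightness of 612 in wild-type and 869 in Sox9-deleted RNA and 430 with vehicle against 752 in Sox9-deleted RNA. Pard6g was at 1.17 and 1.05, with 3439 in wild-type and 1524 in Sox9-deleted RNA and 3032 with vehicle against 1468 in Sox9-deleted RNA. The limma adjusted p was 0.143 for Pard6b and 0.0883 for Pard6g.

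Over the 45 tested tight junction genes outside the set, 23 had both ratios below 0 and 10 had both above, the median being -0.10. With median centring, which put the median of all tested probes at 0.38 in the treatment comparison, 4 had both ratios below 0 and 17 had both above. Relative to that median and the one of the genotype comparison, 19 were lower and 11 higher on each array. By limma 0 passed an adjusted p of 0.05 (0.0132% of all genes). At an unadjusted p under 0.05 limma gave 14 of 45 (19.5% of all genes), 9 lower (9.07%) and 5 higher (10.4%). The share with both ratios below 0 was larger in the set (6 of 8) than in these (23 of 45), which was not tested.

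**Figure D5:**
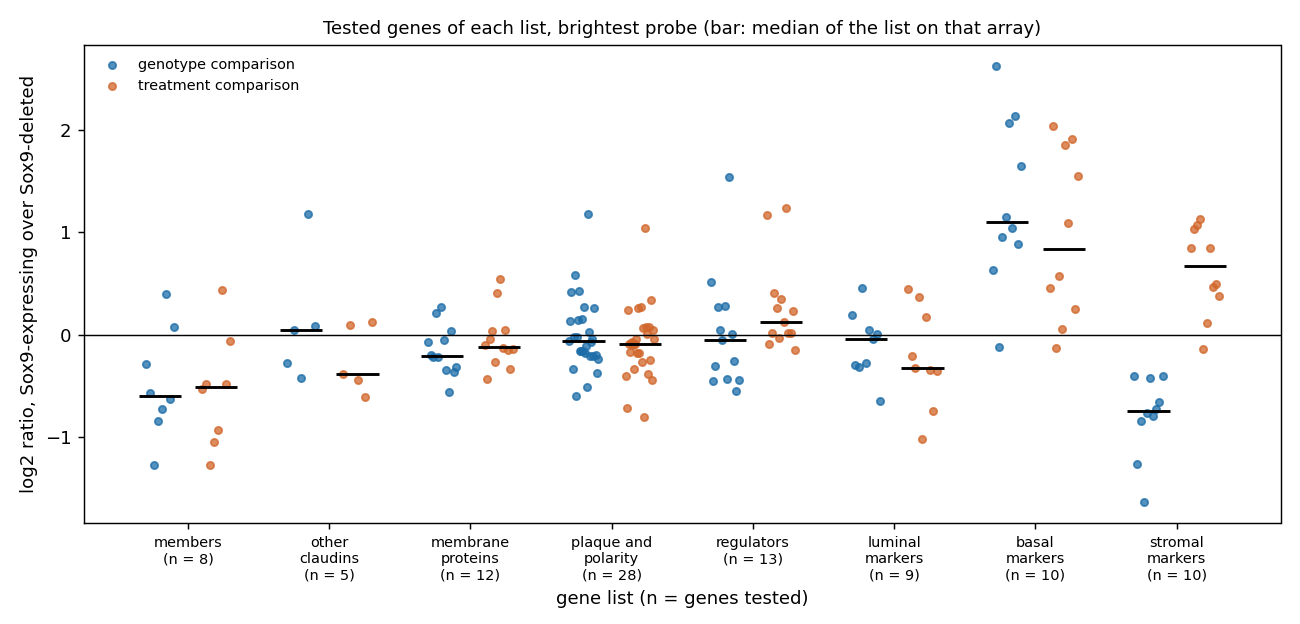
Log2 ratio of Sox9-expressing over Sox9-deleted RNA (vertical axis) for the tested genes of each list, by their brightest probe, with 1 point per gene and array and a bar for the median on that array. The medians of the set are -0.60 and -0.51, those of the basal markers 1.1 and 0.83, and those of the stromal markers -0.74 and 0.67.

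Among 13 tested regulators of epithelial junction genes, 3 had both ratios below 0 and 6 had both above. Besides Snai2, the latter included Ehf (0.52 and 1.17), Grhl2 (0.27 and 0.41) and Ovol2 (0.29 and 0.35). Klf5 (0.05 and 0.26) and Twist1 (0.006 and 0.017) were above 0 too. Besides Zeb2, Elf3 (-0.45 and -0.09) and Ovol1 (-0.05 and -0.03) were below. Twist1 and Ovol1 were dim, at 143 and 141 in wild-type RNA, and well above background in 3 of the 4 RNAs. Little can be read from their signs. Snai2, which encodes the repressor Slug and is itself expressed in basal epithelium, was at 1.54 and 1.23 (limma adjusted p of 0.0947). Its brightness was 3108 in wild-type and 1068 in Sox9-deleted RNA, and 2341 with vehicle against 996 in Sox9-deleted RNA. Its level was therefore high where Cldn3, Cldn4 and Cldn7 were low, in the same 4 RNAs, and whether these values are related was not tested. Zeb2, a repressor of another family, was lowest in the list by its brightest probe, at -0.44 and -0.15 (limma adjusted p of 0.286). Another tested Zeb2 probe, at base 4139, was at -0.02 and -0.003. Snai1 (-0.43 and 0.13) and Zeb1 (-0.55 and 0.23) had opposite signs on the arrays and did not follow Snai2.

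Markers of cell types moved with the arrays and are given for that reason. Of 10 basal markers all were tested and, by the brightest probe, 9 had both ratios above 0, 5 of them (Krt5, Krt14, Krt15, Trp63 and Col17a1) at least 2-fold on each. Another tested Trp63 probe, at base 799, was short of 2-fold, at 0.52 and 0.53. Dst, which encodes dystonin, had 4 tested probes that differed. Its brightest, at base 22388, was at -0.11 and -0.13, and those at bases 773 and 21018 had means of -0.0069 and -0.04, whereas the one at base 547 was at 1.08 and 0.90. The summed brightness of the 10 basal markers was 385190 in wild-type RNA and 337298 with vehicle, against 123273 and 123473 in the Sox9-deleted RNAs. Most of it came from keratins, with Krt5, Krt14 and Krt15 at 101282, 132804 and 100506 in wild-type RNA. Of 11 luminal markers 9 were tested, 5 with both ratios below 0 and 3 with both above. Krt18 was at -0.28 and -1.01. The luminal sum was 259251 and 231568 in Sox9-expressing RNA and 273290 and 325996 in Sox9-deleted RNA. It too was mostly keratins, with Krt8, Krt18, Krt19 and Krt7 at 83526, 56134, 57579 and 39081 in wild-type RNA. The luminal prostate gene Pbsn was not well above background in any RNA, whereas the epithelial genes Krt18, Cdh1 and Epcam were in all 4. In RNA from whole spheres, fewer cells of a type and less RNA per cell cannot be told apart. The part of basal and luminal cells in the claudin values was not tested.

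Stromal markers went opposite ways on the arrays, with a median of -0.74 in the genotype and 0.67 in the treatment comparison. Of these 10 markers 1, Dcn, was lower on both arrays (-0.77 and -0.14) and 0 were higher on both. Their summed brightness was 36121 in wild-type RNA, 94930 with vehicle, and 61705 and 57377 in the Sox9-deleted RNAs. The part of stromal cells in the claudin values was not tested. Of 8 endothelial markers 5 were tested, 3 with both ratios below 0 and 0 with both above, and Pecam1, Tek and Tie1 were not well above background. The sum over the 8 endothelial markers lay between 1718 and 1976. Its largest part was Emcn, at 623 in wild-type RNA, 1273 with vehicle, and 808 and 1008 in the Sox9-deleted RNAs. Of 8 immune markers 3 were tested, and all 3 were lower on both arrays. Cd68 was at -0.69 and -0.77, while the defining markers Ptprc and Cd3e were not well above background. The immune sum was 2624 and 3903 in Sox9-expressing RNA and 4107 and 4469 in Sox9-deleted RNA. Most of it came from Lyz2, at 1454 and 3203 in Sox9-expressing RNA and 2713 and 3545 in Sox9-deleted RNA. Of the 8 immune markers 5 were not well above background in any RNA, so the sum is not a measure of immune cells.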

How the data were processed

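Total RNA was measured on 2 Agilent arrays of 1 slide and 1 scan. The authors deposited the scanner's mean intensity and local background of each spot (Agilent Feature Extraction 10.5.1.1), processed intensities with a log10 ratio of Cy5 over Cy3, and a table of processed values that behaves as log2 Cy5 over Cy3 (slopes of 3.12 and 3.14 on the log10 ratios, r of 0.983 and 0.987 across spots). How that table was made is not given in the sources used here. Intensities were corrected with normexp (offset 50, limma 3.58.1, R 4.3.3), 1639 control spots of 45018 and outlier spots (126 and 130) were left out, loess was applied within each array and spots of a probe were averaged. Tested were the 22731 of 41174 probes whose spots one dye marked well above background on each array. Between 53.9% and 56.2% of probes were well above background in each RNA and 0 spots were saturated, while precision is limited by the number of arrays. The mean log2 ratio was tested against 0 with lmFit and eBayes (limma, two-sided) and Benjamini-Hochberg adjustment over all tested probes, with 1 residual degree of freedom and 2.75 prior ones (prior SD 0.119). Nothing says that the cultures were independent, so p-values measure only the spread between these arrays. Each gene took the value of its brightest probe. Named were all 9 genes with every probe, Sox9, genes past 2-fold and the extremes of each list, genes within 100 kb of Cldn3 or Cldn4 and the 5 nearest to Cldn3. Epcam's comparison with Cldn7, and Cldn9, Cldn12 and Cldn14, were added after values were seen. So were regulators other than Snai2 and Zeb2, Cldn11, keratins given with the sums and further members of counts of 5 or fewer. Genes, lists, tests and alternatives were chosen with earlier results of these data known. The code was tested on simulated data. Counts used pandas 2.3.3, scipy 1.17.1 and numpy 2.4.6 in Python 3.11.15, and figures matplotlib 3.10.9.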

Additional observations from a re-analysis of the deposited data

Results flagged for a closer look

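The following had log2 ratios of opposite sign in the genotype and treatment comparisons, and these differences were not tested. They are not the only such genes or the largest cases. Among the stromal markers, Col3a1 was at -1.63 and 1.13 and Col1a1 at -1.26 and 1.03. The difference, genotype minus treatment, was 0.132 for the Tjp1 probe at base 3503 (0.07 and -0.06), -0.121 for the brighter Wbscr27 probe at base 1305 (-0.002 and 0.12), 1.79 for Cldn6 (1.18 and -0.61), -1.25 for Acta2, a smooth muscle actin gene (-0.40 and 0.85), and 0.179 for Kdr, an endothelial receptor gene (0.08 and -0.09). The Acta2 values are those of its brightest probe. Of its other tested probes, that at base 298 was above 0 on both arrays (0.14 and 0.57). Those at bases 1604 (-0.25 and 1.05) and 222 (-0.0085 and 0.15) had opposite signs.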

How the results depend on the processing

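With 2 arrays in 1 dye orientation, no swap and 1 residual degree of freedom, limma takes most of its spread from other probes, and ratios of dim probes depend on the background correction. The mean log2 ratios of Cldn1, Cldn3, Cldn4, Cldn7, Cldn23 and Ocln stayed below 0, and that of Cldn8 above 0, in each of the 10 alternatives other than leaving out an array. The methods' t-test, no filter on dim probes and a filter for both dyes leave the ratios unchanged, so there the signs could not move. Scaling the arrays to 1 spread multiplies all ratios of an array by a constant. The signs of these genes, the same on both arrays, could not move there either. Averaging all probes likewise leaves Cldn3, Cldn4, Cldn7, Cldn8 and Cldn23 unchanged, as each has 1 probe. The mean log2 ratio of Cldn3 ran from -1.33 to -0.83, with adjusted p from 0.0432 to 0.292 in the alternatives tested with limma.

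With the authors' processed values 1 member passed (Cldn3, limma adjusted p of 0.0432), 68 of all probes passed against 2 in the reported fit, and the median of the members was -0.62. With median centring 0 were 2-fold lower, 2 were higher, the median was -0.26, and 4 other tight junction genes were lower and 17 higher. The tested probes then had medians of 0.02 and 0.38, and 521 passed, 490 of them higher, against 0 of 2 higher in the reported fit. With arrays scaled to 1 spread 0 members were 2-fold lower. The median was -0.63 without background subtraction, -0.70 with the scanner's processed signals and -0.44 when all probes of a gene were averaged. Without the filter on dim probes 2 members were higher, Cldn10 being the added one, at 0.14. Tjp1 turned to -0.0126 with an offset of 10, -0.0063 without background subtraction, -0.0031 with the scanner's signals, -0.0090 with the authors' values and -0.18 with the mean over its probes.

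Leaving out 1 array, the 2-fold members numbered 1 to 2 (Cldn3, and Cldn4 in the treatment comparison), lower members 6 to 7, higher members 1 to 2, and their median -0.60 to -0.51. Other tight junction genes were lower in 29 and higher in 16 on either array, and Tjp1 was -0.058 to 0.074. These counts take the ratio of the 1 remaining array, an easier rule than both ratios. They cannot be set against the counts over both arrays. Over all tested genes the median was -0.01 in the genotype and 0.01 in the treatment comparison, and the share below 0 on 1 array was not counted. Each ratio already pairs the RNAs of an array, so no further block was fitted. The causes of these shifts were not tested.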
